A study of Mus musculus with 10 samples.

Results

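Mitogen-activated protein (MAP) kinases and the ribosomal S6 kinases downstream of them were examined as a set of 9 genes in lactating mammary glands of QSi5 and CBA mice. The members were all probesets with exactly 1 gene symbol in the platform annotation, equal to Mapk3, Mapk8, Mapk9, Mapk14, Map2k1, Map3k12, Rps6ka1, Rps6ka2 or Rps6ka3. This gave 17 probesets for 6 of the 9 genes, out of 20380 probesets with 1 symbol for 12393 genes. No probeset was matched to Mapk3, Rps6ka1 or Rps6ka2, which are not analysed here. QSi5 is an inbred strain derived from outbred Quackenbush-Swiss mice by selection for large litters and a short interval between litters, and the CBA mice (CBA/CaH) are an inbred strain without that selection. Glands of 5 QSi5 and 5 CBA females were collected at day 9 of a first lactation, with 1 Affymetrix array per mouse. The series record adds that weaning was forced after 9 days, a step that the methods leave out. The strains differ across their whole genomes, so that a strain difference cannot be told apart from a difference in any other inherited trait of the dams.

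MAP kinase cascades relay signals from growth factor and stress receptors through 3 tiers, in which a MAP3 kinase phosphorylates a MAP2 kinase and that kinase phosphorylates a MAP kinase. The ERK branch passes through Map2k1 (MEK1) and ends on the ribosomal S6 kinases (RSKs) and on transcription factors, while the JNK kinases (Mapk8, Mapk9) and p38 alpha (Mapk14) answer mainly to stress and cytokines. In the mammary gland, ERK signalling below the EGF receptor is known for its part in ductal branching. These kinases are controlled mainly by phosphorylation, and the arrays measure only their RNA.

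Of the 9 genes, 6 could be tested and 1 passed the test for a strain difference, on 1 of its 2 tested probesets. On that probeset Rps6ka3, which encodes the ERK-activated kinase RSK2, was lower in QSi5 glands by 0.67 on the log2 scale. It passed in 10 of 22 alternative analyses, and the other tested probeset had -0.17 and did not pass. Map3k12, the MAP3 kinase DLK, had a difference of similar size that did not pass the test, though it did with chip type as a block. The JNK and p38 kinases and Map2k1 had differences of at most 0.11 in size on their brightest probesets (the highest mean over all arrays), and none of them passed. Tests were run with limma on 11412 probesets whose mean log2 value in at least 1 strain was, once unlogged, above 20. A probeset was called where its p, adjusted by Benjamini-Hochberg (BH) over all of them, was under 0.05. Of the 17 kinase probesets, 10 were kept, each through both strains, and each of the 6 genes had at least 1 of them. On the brightest probeset, 1 of the 6 genes was lower, 0 were higher and the other 5 did not pass. A second gene had an unadjusted p under 0.05. By probeset, 1 of 10 was lower and 0 were higher, beside 1.51% lower and 1.44% higher among all tested probesets, and 2 had an unadjusted p under 0.05, beside 15.1%. Over all 7361 tested genes, 1.32% were called higher and 1.39% lower in QSi5, so that 1 call among 6 genes is too few to set the kinases apart. The median difference was -0.08 for the 6 genes and 0.00380 for all genes. Mean intensity was used to pick the probeset that stands for a gene, but it is not read as the relative amount of 2 RNAs, because each probeset responds on a scale of its own.

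**Figure D1:**
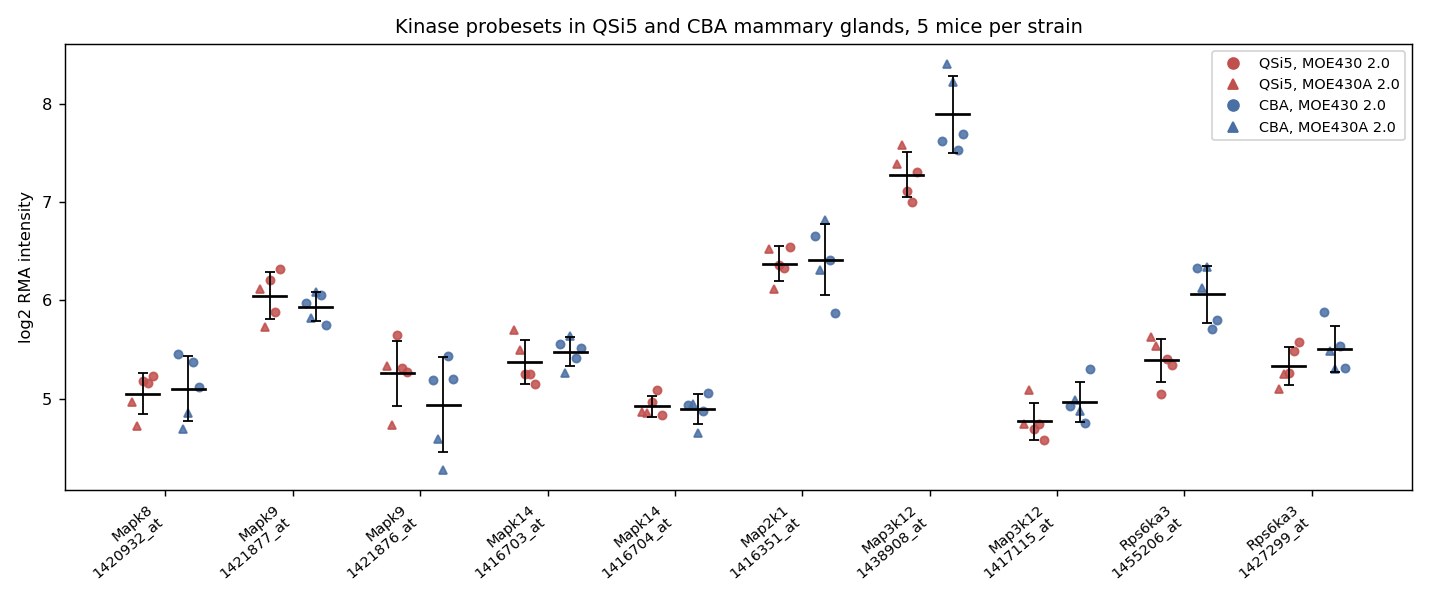
Log2 RMA intensity (vertical axis) of the 10 tested probesets (horizontal axis) in each mouse, with QSi5 left of CBA, circles for MOE430 2.0 and triangles for MOE430A 2.0 arrays. Horizontal lines are strain means and bars are 1 SD (n = 5 mice per strain), and only the Rps6ka3 probeset 1455206_at has no overlap, with QSi5 at 5.04 to 5.62 and CBA at 5.71 to 6.34.

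Array medians lay between 4.21 and 4.30. The median correlation of an array with its own strain, across probesets, was 0.97 to 0.98 for QSi5 arrays and 0.94 to 0.97 for CBA arrays. It was lowest for CBA replicate 3, at 0.943, beside a median of 0.946 between arrays of different strains. Each strain had 3 mice on the MOE430 2.0 chip and 2 on the smaller MOE430A 2.0 chip. Secretory epithelium markers such as the caseins were abundant in both strains, with a summed intensity of 76460 to 80430 in QSi5 and 71380 to 77360 in CBA, and 1 of 9 was called, Krt8, which was lower in QSi5. None of the kept markers of myoepithelium (5 of 6 listed), adipocytes (4 of 7), leukocytes (5 of 11), endothelium (2 of 6) or fibroblasts (5 of 6) was called. The summed leukocyte markers reached 381 to 1228 in QSi5 and 392 to 591 in CBA, and the adipocyte markers 760 to 1097 in QSi5 and 919 to 2137 in CBA. The part of these markers in the results was not tested. In whole glands, fewer cells of a type and less RNA per cell cannot be told apart. The 3' minus 5' log2 difference of the Gapdh control probesets, a sign of RNA quality, was 1.52 to 1.84 in QSi5 and 1.11 to 3.28 in CBA, with CBA replicate 3 the highest.

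Rps6ka3 was the one member called. RSK2 is a serine/threonine kinase with 2 kinase domains that is switched on by ERK and phosphorylates transcription factors such as CREB, and loss of its human counterpart causes Coffin-Lowry syndrome. On probeset 1455206_at, the log2 intensity was 5.62, 5.53, 5.04, 5.40 and 5.34 in QSi5 mice (replicates 1 to 5) and 6.32, 6.12, 6.34, 5.71 and 5.80 in CBA mice. Every QSi5 mouse lay below every CBA mouse, with QSi5 replicate 3 the lowest and CBA replicates 4 and 5 nearest to the QSi5 range. The means were 5.39 ± 0.22 in QSi5 and 6.06 ± 0.29 in CBA (SD, n = 5 each), a difference of -0.67 (SE 0.15, 95% interval -1.01 to -0.33, 1.59-fold lower, limma adjusted p = 0.0375). Over all tested probesets, 2.94% were called and 5.14% did not overlap between the strains. The size was alike within the chip types, at -0.68 for MOE430 2.0 and -0.66 for MOE430A 2.0.

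The call of Rps6ka3 lay near the threshold. It held in 10 of 22 alternative analyses, in which the difference ran from -0.76 to -0.58 and the adjusted p from 0.0157 to 0.311. Leaving out 1 mouse ended it for 7 of the 10 mice, with adjusted p values of 0.0521, 0.105, 0.0776 and 0.0940 without QSi5 replicates 2, 3, 4 and 5, and of 0.0870, 0.0909 and 0.0763 without CBA replicates 1, 2 and 3. With the Gapdh 3' minus 5' difference as a covariate it was -0.58 (adjusted p = 0.104). With no filter on dim probesets the adjusted p was 0.0505, since more probesets were tested.

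A second Rps6ka3 probeset did not show the same separation. Probeset 1427299_at had 5.10, 5.25, 5.26, 5.49 and 5.57 in QSi5 mice and 5.88, 5.48, 5.30, 5.53 and 5.31 in CBA mice. The strains overlapped, although 3 QSi5 mice lay below all CBA mice, and the difference was -0.17 (SE 0.14, 95% interval -0.46 to 0.13, limma adjusted p = 0.624). The remaining one, 1452383_at, which was designed from the same source sequence as 1427299_at, was below the filter, with means of 3.86 in QSi5 and 3.88 in CBA. The strain difference of 1455206_at exceeded that of 1427299_at by -0.50. An exact permutation test over the 10 mice did not separate this from 0 (two-sided p = 0.0556). Its adjusted p was 0.190 over the 4 genes with a pair of kept probesets, and 0.00794 is the smallest p the test allows. The permutation took no account of chip type, and the chip differences (MOE430 2.0 minus MOE430A 2.0) were -0.30 for 1455206_at and 0.23 for 1427299_at. It therefore cannot settle whether the 2 probesets differ. With the mean of both kept probesets standing for the gene, the difference was -0.42 (SE 0.11) and the call was lost (limma adjusted p = 0.0756).

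**Figure D2:**
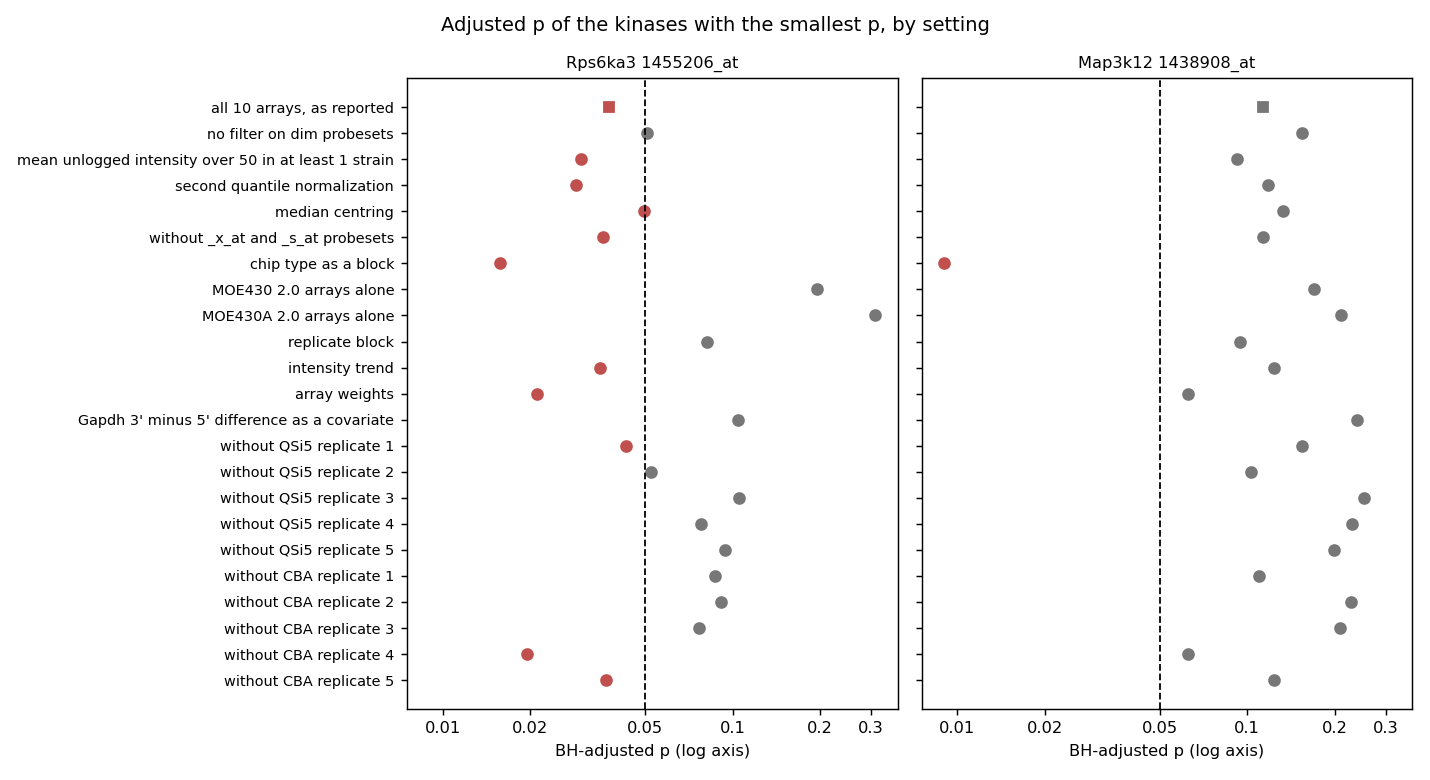
BH-adjusted p (log axis) of Rps6ka3 1455206_at (left) and Map3k12 1438908_at (right) in the analysis of all 10 arrays (square) and under each alternative (circles), with red for an adjusted p under 0.05 (dashed line). Rps6ka3 ranges from 0.0157 to 0.311, and Map3k12 passes in 1 setting, with chip type as a block.

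Among the upstream kinases, Map3k12 encodes DLK, a MAP3 kinase that activates JNK and is known mainly from neurons. Its brightest probeset, 1438908_at, had a log2 intensity of 7.39, 7.58, 7.11, 7.00 and 7.31 in QSi5 mice and 7.62, 8.40, 8.23, 7.53 and 7.69 in CBA mice. The strains overlapped only through QSi5 replicate 2 and CBA replicate 4, and the highest CBA values were those of replicates 2 and 3, both on the MOE430A 2.0 chip. The means were 7.28 ± 0.23 in QSi5 and 7.89 ± 0.39 in CBA (SD, n = 5 each), a difference of -0.62 (SE 0.18, 95% interval -1.02 to -0.22) with an unadjusted p of 0.00548 that did not pass the limma BH threshold (adjusted p = 0.113). Of all tested probesets, 6.49% had an unadjusted p under 0.01. Intensity also ran with chip type, at -0.52 for MOE430 2.0 against MOE430A 2.0 arrays (limma adjusted p = 0.0714), and with chip type as a block Map3k12 was called lower in QSi5 (adjusted p = 0.00898). Taken within MOE430 2.0 it was -0.48, and within MOE430A 2.0 it was -0.83. With the Gapdh 3' minus 5' difference as a covariate it was -0.44 (adjusted p = 0.239). The study itself singled out Map3k12 from these arrays, along with Nlk and Jund described further on, so their values here are no independent evidence.

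The other Map3k12 probesets had smaller differences of the same sign. Probeset 1417115_at had 4.74, 5.08, 4.69, 4.75 and 4.58 in QSi5 mice and 4.92, 4.99, 4.88, 4.75 and 5.30 in CBA mice, a difference of -0.20 (SE 0.13, 95% interval -0.48 to 0.08, limma adjusted p = 0.520). The strains overlapped through QSi5 replicate 2, which lay above 4 of the CBA mice. The other 4 QSi5 mice lay below all CBA mice, replicate 4 only narrowly (4.747 against a CBA minimum of 4.750). QSi5 replicate 5 was the lowest and CBA replicate 5 the highest. The strain difference of 1438908_at exceeded that of 1417115_at by -0.42 (exact permutation test, two-sided p = 0.0952, adjusted p = 0.190). The dim probeset 1456565_s_at, designed from the same source sequence as 1438908_at, averaged 2.62 in QSi5 and 2.73 in CBA and was not tested.

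Map2k1 encodes MEK1, the MAP2 kinase that phosphorylates ERK, and was measured by a single probeset. It had 6.52, 6.11, 6.36, 6.33 and 6.55 in QSi5 mice and 6.66, 6.31, 6.82, 6.41 and 5.88 in CBA mice. All QSi5 values fell inside the CBA range, and the CBA mice spread more widely, with an SD of 0.17 in QSi5 and 0.36 in CBA. The difference was -0.04 (SE 0.17, 95% interval -0.40 to 0.32, limma adjusted p = 0.939), and it changed sign between the chip types, at 0.10 for MOE430 2.0 and -0.25 for MOE430A 2.0.

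**Figure D3:**
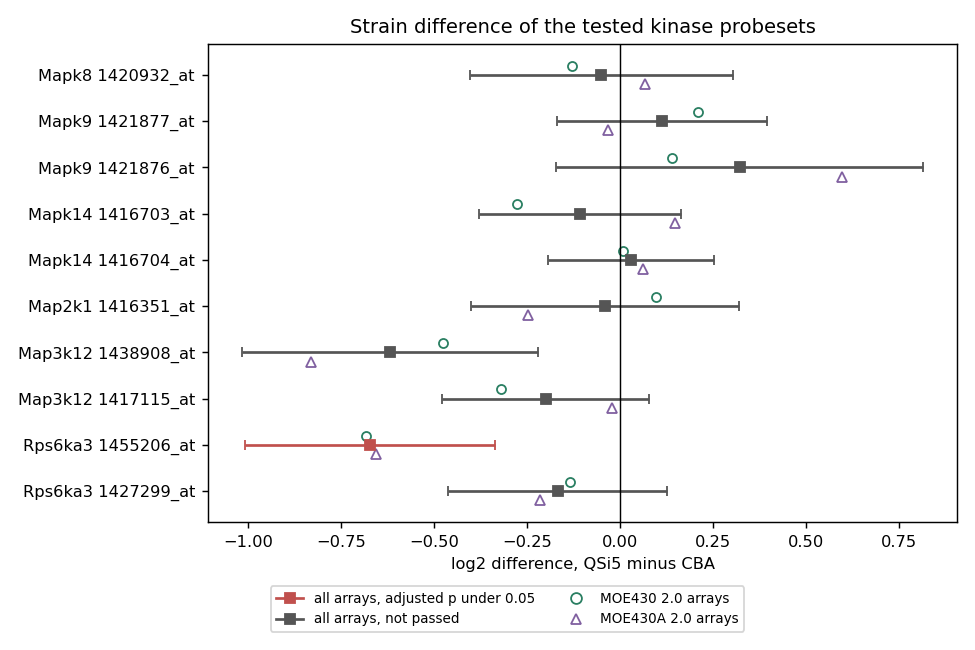
Log2 difference (QSi5 minus CBA, horizontal axis) of each tested probeset (rows), with squares for all 10 arrays, bars for limma's 95% interval, and open symbols for the difference within each chip type. Only the square of Rps6ka3 1455206_at, at -0.67, is red (adjusted p under 0.05), and the interval of Map3k12 1438908_at also lies below 0.

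The MAP kinases themselves did not pass in either direction. Mapk14 encodes p38 alpha, which is activated by stress and inflammatory cytokines. Its brightest probeset, 1416703_at, had 5.69, 5.50, 5.26, 5.25 and 5.15 in QSi5 mice and 5.56, 5.26, 5.64, 5.41 and 5.51 in CBA mice. The QSi5 mice included both the highest and the lowest value, with the 2 MOE430A 2.0 arrays above the 3 others. The difference was -0.11 (SE 0.12, 95% interval -0.38 to 0.16, limma adjusted p = 0.745), and its sign differed between MOE430 2.0 (-0.28) and MOE430A 2.0 (0.15). Probeset 1416704_at, from the same source sequence, had 4.83 to 5.09 in QSi5 and 4.65 to 5.05 in CBA and a difference of 0.03 (SE 0.10, adjusted p = 0.924). The other Mapk14 probesets, 1426104_at and 1451927_a_at, were below the filter in both strains, with means of 3.19 and 2.43 in QSi5 and 3.13 and 2.37 in CBA.

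Mapk9 encodes JNK2, a stress-activated kinase that phosphorylates Jun. On 1421877_at it had 6.11, 5.72, 6.21, 5.88 and 6.32 in QSi5 mice and 5.97, 5.82, 6.08, 6.05 and 5.75 in CBA mice. QSi5 replicates 1, 3 and 5 lay above all CBA mice and replicate 2 below them, and the difference was 0.11 (SE 0.13, 95% interval -0.17 to 0.39, limma adjusted p = 0.739). Probeset 1421876_at, from the same source sequence, varied widely between mice, with 5.33, 4.73, 5.65, 5.32 and 5.27 in QSi5 and 5.19, 4.59, 4.28, 5.43 and 5.20 in CBA. Of the 4 arrays on the MOE430A 2.0 chip, 3 gave its lowest values, and its difference between the chip types was 0.61 (MOE430 2.0 minus MOE430A 2.0, limma adjusted p = 0.105). The strain difference of 0.32 had a wide interval (SE 0.23, -0.17 to 0.82, adjusted p = 0.564), so a difference of the size seen for Rps6ka3 lies inside it with the opposite sign. The third Mapk9 probeset, 1421878_at, averaged 3.99 in QSi5 and 3.84 in CBA, below the filter. The paired probesets of Mapk9 and Mapk14 differed in strain effect by -0.21 and -0.14 (exact permutation tests, two-sided p = 0.468 and 0.437, both adjusted p = 0.468).

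Mapk8 encodes JNK1, which shares most of its substrates with JNK2. Probeset 1420932_at had 4.96, 4.72, 5.18, 5.16 and 5.23 in QSi5 mice and 5.46, 4.69, 4.86, 5.38 and 5.12 in CBA mice. The values of QSi5 lay inside the range of CBA, and in both strains the 2 MOE430A 2.0 arrays were the lowest. The difference was -0.05 (SE 0.16, 95% interval -0.40 to 0.30, limma adjusted p = 0.919), and the chip types differed by 0.45 (MOE430 2.0 minus MOE430A 2.0, adjusted p = 0.0877). Its dim probesets 1437045_at and 1420931_at averaged 3.42 and 3.08 in QSi5 and 3.37 and 3.13 in CBA. Across the 7 dim kinase probesets, differences ran from -0.11 (Map3k12) to 0.15 (Mapk9), with no test.

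The pathway around these kinases was described by lists of other cascade members, regulators and targets. Of 125 listed genes, 99 had a probeset and 64 were tested on their brightest probeset. Of these, 0 were higher, 2 were lower and 62 did not pass (limma). An unadjusted p under 0.05 was found for 7 of the 64, beside 1098 of all 7361 tested genes, so it does not set the lists apart. The median difference was -0.06, beside 0.00380 over all tested genes, and 26 genes had a positive and 38 a negative difference. Both called genes, Taok1 and Jund, were lower in QSi5 glands. The share called was 3.12%, beside 2.7% of all tested genes.

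Among 10 tested MAP3 and MAP4 kinases outside the set, 1 was lower and 9 did not pass, beside 1.39% called lower among all tested genes. A call for 1 of 10 genes is too few to set them apart. Taok1, a kinase that acts on the p38 branch at the MAP3 tier, had 6.14, 6.23, 5.75, 5.74 and 5.97 in QSi5 mice and 6.85, 6.43, 6.79, 6.63 and 6.42 in CBA mice on 1424657_at. All QSi5 mice lay below all CBA mice. The difference was -0.66 (SE 0.13, 1.58-fold lower, limma adjusted p = 0.0186), with -0.81 within MOE430 2.0 and -0.42 within MOE430A 2.0. Of the other Taok1 probesets, 1426358_at had no overlap either but did not pass (-0.44, adjusted p = 0.0914), and 1426357_at had -0.12 (adjusted p = 0.759). The call was lost without QSi5 replicates 3, 4 or 5 (adjusted p = 0.0608, 0.0532 and 0.0537) and with the Gapdh covariate (-0.64, adjusted p = 0.0511). It was also lost within the MOE430A 2.0 arrays alone (limma adjusted p = 0.546) and with replicate number as a block (adjusted p = 0.0686).

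Among the other MAP kinases (5 tested) and MAP2 kinases (4 tested), 0 were called by limma and 0 had an unadjusted p under 0.05 on the brightest probeset. On that probeset Mapk6 had the lowest p of the MAP kinases, with -0.12 (adjusted p = 0.624), and over all their probesets Nlk had it. Nlk, an atypical MAP kinase that phosphorylates TCF/LEF factors, had probesets of opposite sign, with 0.16 on 1435970_at (adjusted p = 0.657) and -0.38 on 1419112_at (adjusted p = 0.104). On 1419112_at all QSi5 mice (4.52 to 4.63) lay below all CBA mice (4.82 to 5.26). Map2k3, which activates p38, had the lowest p among the MAP2 kinases, with -0.24 (SE 0.13, adjusted p = 0.408). Of the 4 tested kinases that MAP kinases activate, 0 were called. An unadjusted p under 0.05 was found for 1098 of all 7361 tested genes and for 2 of these 4, too few to set them apart. The lowest was that of Mknk2, which phosphorylates the translation factor eIF4E, at 0.35 (SE 0.11, adjusted p = 0.148), with 8.96 to 9.35 in QSi5 and 8.53 to 8.97 in CBA. The other was the related kinase Mknk1, named after its value was seen, at 0.23 (adjusted p = 0.310). Of the 2 listed p70 S6 kinases, 1 was matched to a probeset by the annotation used here and lay below the filter, and the other is not analysed here.

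Scaffolds and inhibitors were not called (0 of 18, with 0 at an unadjusted p under 0.05 on the brightest probeset, limma). The lowest p on that probeset was that of Spry2, an inhibitor of receptor tyrosine kinase signalling, with -0.30 (adjusted p = 0.361), and over all probesets that of Tab2. Tab2, an adaptor of the MAP3 kinase TAK1, had 0.18 on 1423462_at (adjusted p = 0.718) and 0.37 on 1451003_at (adjusted p = 0.173), where all QSi5 mice (7.34 to 7.70) lay above all CBA mice (6.71 to 7.29). Of 5 tested MAP kinase phosphatases, 0 were called on the brightest probeset, with a list median of -0.39 over only these 5 genes. An unadjusted p under 0.05 was found for 1 of them, beside 1098 of all 7361 tested genes. The 1 gene of the list at that p was Dusp3, a phosphatase of ERK and JNK, named after its value was seen. All QSi5 mice (5.64 to 5.96) lay below all CBA mice (6.14 to 7.15) on 1434472_at, and the difference of -0.59 did not pass (SE 0.18, adjusted p = 0.128). On another probeset, and in the other direction, 1 gene of the list was called, Dusp7, which encodes a phosphatase of ERK. Its probeset 1427416_x_at was called higher in QSi5, with 6.78, 6.92, 7.09, 6.94 and 6.71 in QSi5 mice and 6.56, 6.52, 6.43, 6.31 and 6.36 in CBA mice (difference 0.45, SE 0.10, adjusted p = 0.0362). The brighter 1452097_a_at had 6.67 to 6.99 in QSi5 and 6.88 to 6.98 in CBA and a difference of -0.06 (adjusted p = 0.816). The suffix _x_at marks probes that may also match other transcripts, and the call held in 10 of 21 alternative analyses. It was lost without QSi5 replicates 2, 3 or 4 or CBA replicates 2, 3, 4 or 5 (adjusted p of 0.0609 to 0.110) and with the Gapdh covariate (0.46, adjusted p = 0.0666). The same held within the MOE430 2.0 or MOE430A 2.0 arrays alone (limma adjusted p = 0.202 and 0.558) and with replicate number as a block (adjusted p = 0.114).

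Transcription factor targets of the cascades had 0 genes higher, 1 lower and 17 not passed of 18 tested, with a median of -0.14. Of all 7361 tested genes, 1.39% were called lower and 1098 had an unadjusted p under 0.05. That p was reached by 3 of the 18 here, which does not set the list apart. Those 3 were Jund and, named after their values were seen, the immediate early genes Ier2 (-0.29, adjusted p = 0.264) and Fos (-0.62, adjusted p = 0.318). Jund, an AP-1 subunit that JNK and ERK can phosphorylate, had 9.52, 9.19, 9.28, 9.31 and 9.41 in QSi5 mice and 10.05, 9.89, 10.15, 9.74 and 9.85 in CBA mice. No QSi5 mouse reached the lowest CBA mouse. The difference was -0.60 (SE 0.11, 1.51-fold lower, limma adjusted p = 0.00985), and the call was kept in all 10 analyses that left out 1 mouse. With the Gapdh covariate it was -0.54 (adjusted p = 0.0292), and within each chip type alone it did not pass (-0.55 for MOE430 2.0, adjusted p = 0.102, and -0.67 for MOE430A 2.0, adjusted p = 0.347).

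**Figure D4:**
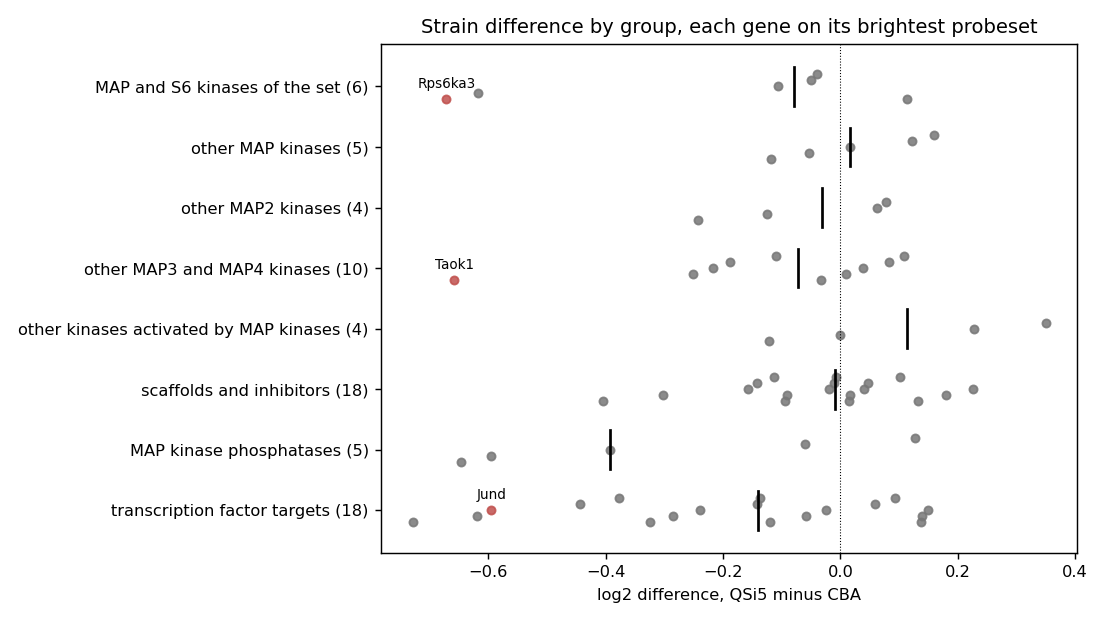
Log2 difference (QSi5 minus CBA, horizontal axis) of each tested gene on its brightest probeset, by group (rows, number of genes in brackets), with black lines for group medians and red points for an adjusted p under 0.05. Rps6ka3, Taok1 and Jund are the red points, all between -0.67 and -0.60, and the group medians run from -0.39 to 0.11.

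The probesets whose pattern was most like that of Rps6ka3 1455206_at were sought among 10423 probesets of other genes. After strain means were taken off, the highest Pearson r over the 10 arrays were those of Bfar (0.954), Itga3 (0.952), Kmt2e (0.944), Tollip (0.940) and Clk3 (0.936). None of these 5 was itself called between the strains, with differences from -0.40 (Bfar) to 0.10 (Clk3). With strain left in, the highest were Itga3 (0.968), Bfar (0.964), Mapre1 (0.962), Tcf7l1 (0.957) and Dbi (0.953), of which Mapre1 (-0.74), Tcf7l1 (-1.37) and Dbi (-0.65) were called lower in QSi5. These values describe likeness only, since each is the highest of many over 10 arrays that share the 2 strains.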

How the data were processed

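Mammary RNA of 5 QSi5 and 5 CBA mice was measured on 1 array per mouse, and strains were taken from the sample titles. The deposited log2 values were made by the authors with RMA in affy (background correction, quantile normalization, 1 summary per probeset), after the 22690 probesets common to both chip types had been taken with matchprobes. Versions are not stated. After 64 control probesets were set aside, those were kept whose mean log2 value in at least 1 strain, once unlogged, was over 20. The methods give the same minimum in at least 1 condition, without naming the mean used. Differences (QSi5 minus CBA) came from lmFit and eBayes (limma 3.58.1, R 4.3.3, two-sided) on all 11412 kept probesets, with BH adjustment over all of them. The fit was tested on simulated arrays with independent normal noise for each probeset and added differences of known size. Those arrays held no effect of chip type or RNA quality, so the test does not cover these. Paired probesets of 1 gene were compared by an exact permutation test added after the values were seen. Symbols came from the platform annotation, with 20380 probesets of 1 gene, 691 of several and 1555 unnamed here. The members and lists were chosen with earlier results of these data known. Named genes are the members, the called genes of each list on any tested probeset (otherwise that of the lowest p on any of them), and the 5 probesets most like the member of the lowest p by each measure. Precision is limited by the 5 arrays per strain, and p-values measure the spread between these mice only. Alternatives changed the filter, normalization, probeset types, chip type, replicate block, variance model, gene summary and mice, and the Gapdh covariate was added after the data were seen.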

Additional observations from a re-analysis of the deposited data

How the results depend on the processing

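Over all alternatives the direction of Rps6ka3 1455206_at, Map3k12 (both tested probesets), Taok1, Jund, Dusp7 1427416_x_at and Mapk9 1421876_at was kept. The count of kinase genes called, 1 of 6, was 2 with chip type as a block and 0 with no filter, within the MOE430 2.0 or the MOE430A 2.0 arrays, with the replicate block, with the mean of all probesets of a gene and with the Gapdh covariate, and 0 to 1 without each mouse in turn. The count of kinase probesets called gave the same numbers where it could be taken. In each of these settings 2 or 3 of the genes had an unadjusted p under 0.05 by limma. The count of pathway list genes called, 2 of 64, was 1 within the MOE430 2.0 arrays, with the replicate block, with the mean of probesets and with the Gapdh covariate, 0 within the MOE430A 2.0 arrays (6 at an unadjusted p under 0.05), and 1 to 2 without each mouse. The count over all probesets, 336, was 149 within the MOE430 2.0 arrays, 64 within the MOE430A 2.0 arrays, and 220 (without QSi5 replicate 5) to 414 without each mouse, and 221 without QSi5 replicate 3. The smaller sets hold fewer arrays, and the other causes were not tested. Changes of sign touched differences that were not called. Map2k1 was 0.0102 after a second quantile normalization, 0.10 within the MOE430 2.0 arrays and 0.0789 with array weights, and ran from -0.17 to 0.0609 without each mouse. Mapk8 1420932_at was 0.0685 within the MOE430A 2.0 arrays and 0.0011 with array weights, and ran from -0.15 to 0.0396 without each mouse. Mapk14 1416703_at was 0.15 and Mapk9 1421877_at -0.0327 within the MOE430A 2.0 arrays. Mapk14 1416704_at was -0.0111 with array weights and -0.0214 with the Gapdh covariate, and ran from -0.0315 to 0.07 without each mouse.

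Deviations of same-numbered mice from their strain means correlated at -0.25, 0.29, -0.37, 0.06 and 0.02 for replicates 1 to 5. By the same deviations, 2 of 10 arrays correlated best with their own number. Chip type was left in these deviations, and it differed between the 2 mice of replicate 1 and of replicate 3. These values therefore cannot settle whether the replicate numbers pair the mice. With the replicate block 260 probesets were called, and Rps6ka3 had an adjusted p of 0.0815, Taok1 0.0686 and Dusp7 1427416_x_at 0.114.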
